A study of Drosophila melanogaster
Mus musculus with 6 samples.

Results

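The Myc region of mouse chromosome 15 was described as the 10 kb intervals (bins) that start from 60 Mb and before 62.6 Mb (build mm9). It was selected on wild-type H3K36me2, since it holds a stretch of very high levels on the low-coordinate side of Myc, whose position was taken as 61.82 Mb. It comprised 244 bins of 248945 in the genome, and the other 9586 bins of chromosome 15 served for comparison. A further 8 intervals of 20 kb inside the window were left out, so that short gaps interrupt it. Coordinates are 1-based, "upstream" means towards lower coordinates, and distances are counted from the position of Myc.

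The cells were C3H10T1/2, a line of mesenchymal progenitors from C3H mouse embryos, at passage 10 to 15. Both groups carried a stably expressed, FLAG-HA-tagged histone H3.1 transgene on top of their own histone genes: wild-type H3.1 in WT cells, and H3.1 with methionine in place of lysine 36 in K36M cells. Chromatin was cut to mononucleosomes with micrococcal nuclease, mixed with Drosophila S2 chromatin as an external reference (5% of the mouse chromatin by the protocol, while another label gives an equal mixture of cells), and immunoprecipitated for H3K36me2 or H3K27me3. The labels do not say whether a line was 1 clone. The series held 6 samples, 1 per group, of which 4 libraries were analysed here and the 2 inputs were not. With 1 library per group, nothing was tested between WT and K36M. Intervals in parentheses are exact binomial 95% intervals that cover counting error only, and PCR copies are not independent molecules.

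Dimethylation of histone H3 at lysine 36 is laid down over broad intergenic and genic domains by the NSD family of methyltransferases. H3K27me3 is laid down by Polycomb repressive complex 2, an enzyme that works poorly on a nucleosome already methylated at lysine 36, and the lysine-to-methionine mutation of histone H3 interferes with lysine 36 methylation well beyond the nucleosomes that carry it. Myc encodes a transcription factor that drives growth and proliferation. It lies in a gene-poor neighbourhood with distant enhancers, and the long noncoding RNA gene Pvt1 lies on its downstream side. No mouse gene annotation was used here, so bins are given by position alone and none was assigned to Pvt1 or to an enhancer.

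Levels are given as scaled reads per 10 kb bin, which are whole reads multiplied by 1 factor per library. The H3K36me2 libraries held 59618463 reads (WT) and 51982053 reads (K36M), and the H3K27me3 libraries 31847430 (WT) and 29817968 (K36M). The median bin of the Myc region held 607.5 and 93 reads of H3K36me2, and 63 and 147.5 reads of H3K27me3, each in WT and K36M. The deposited factor of the H3K36me2 libraries was 8.15-fold smaller in K36M than in WT, and that of the H3K27me3 libraries was 2.71-fold larger. Every ratio of K36M over WT rests on these factors. Scaling the libraries instead to equal totals, taken over the 10 kb bins kept here and not over all reads, would multiply each H3K36me2 ratio by 9.44. It would divide each H3K27me3 ratio by 2.52. Values under that scaling, called equal library totals, stand beside the means and counts that it turns round.

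Across the whole region, H3K36me2 was far lower and H3K27me3 was higher in K36M. The mean of H3K36me2 was 368 scaled reads per bin in WT and 18.3 in K36M, which is 20.2-fold lower (20.0 to 20.4). The median was 386 in WT and 7.25 in K36M, and single bins lay between 31.2 and 661 (WT) and between 0.858 and 139.9 (K36M). The mean of H3K27me3 was 14.8 in WT and 44.7 in K36M, which is 3.02-fold higher (2.98 to 3.07), and its median was 6.87 in WT and 43.5 in K36M. Every one of the 244 bins was below its WT level for H3K36me2 under the deposited scaling, against 218 bins with equal library totals. For H3K27me3, 206 bins (84.4%) were above their WT level, against 94.2% over the rest of chromosome 15, and these shares were 72.5% and 70.9% with equal library totals.

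Over the rest of chromosome 15, the mean of H3K36me2 was 185 in WT and 17.7 in K36M, 10.4-fold lower under the deposited scaling. The level in K36M thus differed little between the region and its chromosome, while the WT level, on which the region was selected, did. The mean of H3K27me3 over the rest of the chromosome was 14.9 in WT and 37.2 in K36M, a ratio of 2.50 under the deposited scaling and of 0.992 with equal library totals. The stretches of 2.6 Mb on either side were between the region and its chromosome for H3K36me2 in WT: the mean was 252 on the upstream side (254 bins) and 282 on the downstream side (256 bins), with 28.5 and 24.98 in K36M. With equal library totals the ratio of K36M over WT was 1.07 on the upstream side and 0.836 on the downstream side. When chromosome 15 was divided into 38 windows of 2.6 Mb, the region ranked 2 for H3K36me2 in WT and 18 for H3K36me2 in K36M. In H3K27me3 it ranked 17 (WT) and 13 (K36M). By the means of the libraries that had not been used to select it, the region thus lay in the middle of the order. For H3K36me2 in K36M, however, 54.7% of the region's signal lay in 23 bins that are described below.

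The same comparison was made bin by bin as log2 of K36M over WT after adding a pseudocount of 19.7 scaled reads for H3K36me2 and 1.64 for H3K27me3. These log2 values understate changes of bins near or below the pseudocount, as most K36M bins were for H3K36me2. The median log2 ratio of H3K36me2 was -3.85 in the region and -2.03 over the rest of the chromosome. That of H3K27me3 was 2.08 in the region and 1.71 over the rest. The difference of 0.37 is smaller than the standard deviation of 0.39 between the chromosome's 2.6 Mb windows. By its median log2 ratio of H3K27me3 the region ranked 7 of the 38 windows, counted from the highest. A bin was counted as lower or higher at a 2-fold change if its mean over both lines reached the genome's 25th percentile (20.0 scaled reads for H3K36me2, 10.5 for H3K27me3). By this rule 224 of 243 bins were lower in H3K36me2 (92.2%), where the genome gave 89.8%, and no bin of the region was higher by this rule. With equal library totals, 202 bins were lower by the rule and 26 of the 244 were above their WT level. For H3K27me3, 156 of 216 bins were higher (72.2%), where the genome gave 70.1%, and 28 bins were too low to be counted. Under the deposited scaling, only 3 of 216 bins were lower in H3K27me3 (1.39%). The genome gave 0.161% and the rest of chromosome 15 gave 12 of 7557 bins. Equal library totals lower every H3K27me3 ratio, so this count rests on the deposited factors. The share for H3K36me2 belongs to the measure that selected the region and is given as a description, and the share of bins higher in H3K27me3 was near its background.

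**Figure D1:**
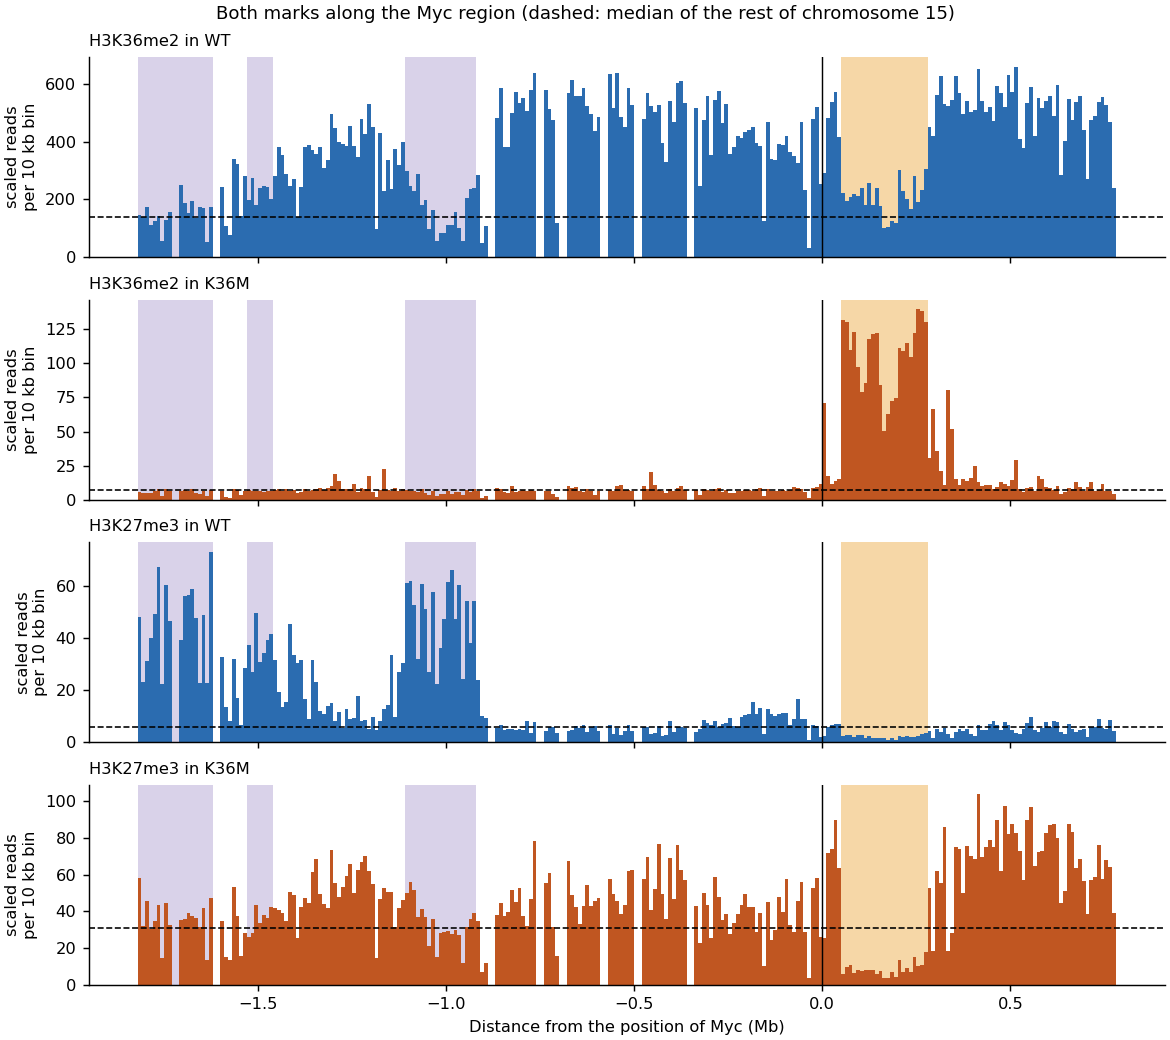
Level of each mark along the Myc region in WT (blue) and K36M (brown), as scaled reads per 10 kb bin (1 library per panel, own vertical scale, no error bars) against the distance from Myc in Mb; the dashed line is the median of the rest of chromosome 15 and white gaps are 20 kb intervals left out. H3K36me2 in K36M stays near 7.25 scaled reads in most bins and reaches 139.9 in the orange stretch, while the purple stretches are those where WT H3K27me3 was high.

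The wild-type H3K36me2 that marks the region lay mostly in 4 runs of at least 5 bins. A bin was called high at or above the genome's 90th percentile of WT H3K36me2, 340.26 scaled reads, and breaks of up to 20 kb in all, from lower bins or wider intervals, were bridged. By that threshold 142 of the 244 bins were high, against 18.3% of the bins of the rest of the chromosome. The bin just below the threshold, at 60500001-60510000, had 336 scaled reads, and the bin just above it, at 60250001-60260000, had 340.26. The longest run spanned 730 kb, from 61140001 to 61870000, which is 680 kb upstream to 50 kb downstream of the Myc position, and held 67 of the member bins. It was the third longest of 236 runs on chromosome 15, counted with no minimum length, of which the longest spanned 880 kb. The other runs in the region spanned 490 kb (62100001-62590000), 210 kb (60440001-60650000) and 160 kb (60950001-61110000). The gap between the longest run and the shortest of the 4 was a single low bin and a 20 kb interval, too wide to be bridged, and with levels averaged over 5 bins both formed 1 run of 910 kb.

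In K36M H3K36me2 was far lower than in WT in all of these runs, with a median of 7.96 scaled reads over their bins. The K36M median over the rest of chromosome 15 was 7.10. Since WT H3K36me2 picked the runs, the size of their H3K36me2 folds follows in part from that choice. H3K27me3 was higher than in WT in all of the runs. In the longest run the mean of H3K36me2 was 455 in WT and 8.69 in K36M, 52.4-fold lower (51.1 to 53.7), and the mean of H3K27me3 was 6.79 in WT and 46.3 in K36M, 6.81-fold higher (6.57 to 7.06). In the run at 60950001-61110000 H3K36me2 was 520 in WT and 6.64 in K36M, 78.4-fold lower (73.9 to 83.3), and H3K27me3 was 5.47 in WT and 46.5 in K36M, 8.52-fold higher. This run held the bin with the most negative log2 ratio of the region after the pseudocount was added, 61050001-61060000, where H3K36me2 was 638 in WT and 6.16 in K36M (log2 ratio -4.67), while H3K27me3 was 7.74 in WT and 78.5 in K36M. The run at 60440001-60650000 had the lowest WT H3K36me2 of the 4, 393 against 8.81 in K36M, and H3K27me3 of 11.9 in WT and 54.3 in K36M, 4.58-fold higher (4.35 to 4.82).

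The downstream run, 62100001-62590000, held both the bin with the highest WT H3K36me2 and the bin with the highest K36M H3K27me3 of the region. Its mean of H3K36me2 was 517 in WT and 15.3 in K36M, 33.7-fold lower (33.0 to 34.5). Its mean of H3K27me3 was 5.22 in WT and 69.0 in K36M, 13.2-fold higher (12.6 to 13.8). The bin with the highest WT H3K36me2 of the region, 62330001-62340000, had 661 scaled reads in WT and 28.9 in K36M. The highest H3K27me3 in K36M lay at 62230001-62240000, where it was 6.65 in WT and 103.8 in K36M, and the neighbouring bin 62220001-62230000 had the highest log2 ratio of H3K27me3, 4.13, with 2.40 in WT and 68.7 in K36M. Taken over all 151 bins of the 4 runs, H3K36me2 was 44.3-fold lower (43.6 to 45.0) and H3K27me3 was 7.98-fold higher (7.80 to 8.17). H3K27me3 was above its WT level in 142 of the 142 high bins of the region under the deposited scaling and in 137 of them with equal library totals. The rest of the chromosome had 1750 high bins, of which 1750 and 1687 were above their WT level under these scalings. The mean ratios of H3K27me3 were 7.66 in the region and 6.89 over the rest under the deposited one. Those of H3K36me2 over the same bins were 0.0215 in the region and 0.0281 over the rest.

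Set against the other 177 bins of the region, the longest run had a K36M mean of H3K36me2 that was 0.397 times theirs (8.69 against 21.9), but the medians, 7.18 and 7.49, were nearly the same. Its WT H3K27me3 was 0.381 times theirs by the mean (6.79 against 17.8), and its K36M H3K27me3 was 1.05 times theirs (1.03 to 1.07), at 46.3 against 44.1. The means of the other bins include the stretches described next.

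The upstream end of the region held stretches that carried H3K27me3 already in WT. They were picked after the values were seen, by a WT H3K27me3 level of 36.1 scaled reads (the genome's 90th percentile), and are described without a test. They lay at 60000001-60200000 (18 bins), 60290001-60360000 (7 bins) and 60710001-60900000 (19 bins). In all of them WT H3K36me2 was lower than in the high runs: the means were 148, 226 and 165, and they were 5.70, 6.28 and 5.44 in K36M. H3K36me2 was thus 29.6-fold lower (28.5 to 30.8) over the 44 bins, and yet H3K27me3 was not higher. Its mean was 45.2 in WT and 36.3 in K36M in the first stretch, a ratio of 0.804 (0.767 to 0.844). In the second it was 37.0 in WT and 35.4 in K36M, a ratio of 0.956 (0.882 to 1.03). The counting interval of this ratio included 1 under the deposited scaling. In the last it was 48.2 in WT and 33.3 in K36M, a ratio of 0.692 (0.659 to 0.725). With equal library totals the ratios of these stretches, in order, were 0.320, 0.380 and 0.275.

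Within the last of these stretches lay the only 3 bins of the region that passed the rule for lower H3K27me3 under the deposited scaling. At 60830001-60840000 H3K27me3 was 66.1 in WT and 27.4 in K36M (log2 ratio -1.22), at 60850001-60860000 it was 60.4 and 27.1 (-1.11), and at 60820001-60830000 it was 61.5 and 29.2 (-1.03). The bin with the most H3K27me3 in WT, 60190001-60200000, had 73.0 scaled reads in WT and 47.2 in K36M. In WT, H3K27me3 was 45.2 scaled reads in the 44 bins of these stretches and 6.86 in the 151 bins of the H3K36me2 runs. This contrast follows in part from picking both sets on WT levels. In K36M the order was the other way, at 34.9 against 54.8. This order in K36M is a comparison within 1 library and does not depend on the scaling factors.

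The mean ratio was higher over bins of the same kind elsewhere on the chromosome. The region had 33 bins that reached this level of WT H3K27me3, with means of 51.9 in WT and 38.3 in K36M, and 3 of these 33 were above their WT level. The rest of chromosome 15 had 1142 such bins, with means of 63.2 in WT and 69.2 in K36M. Under the deposited scaling 62.1% of them were above their WT level. With equal library totals, 0 of the 33 and 8 of the 1142 bins were above it. The mean ratios were 0.737 and 1.09 under the deposited scaling, and 0.293 and 0.435 with equal library totals. Median WT H3K36me2 of these bins was 174 in the region and 88.4 over the rest of the chromosome, and the part of this difference in the result was not tested.

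**Figure D2:**
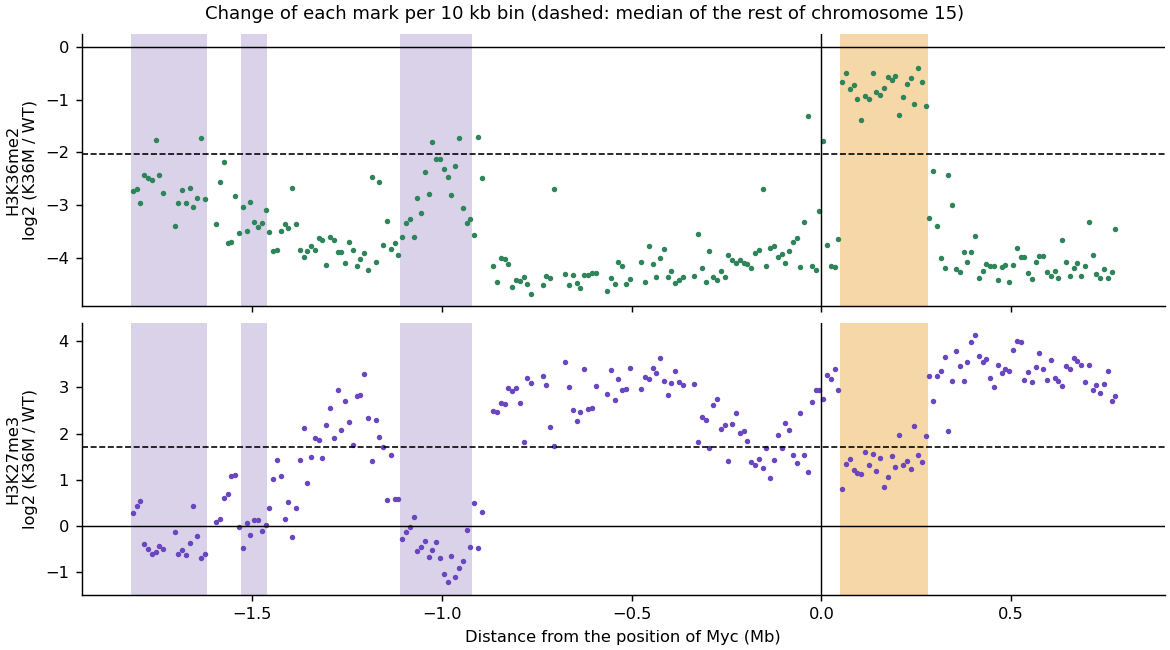
Log2 ratio of K36M over WT per 10 kb bin for H3K36me2 (upper panel) and H3K27me3 (lower panel) against the distance from Myc in Mb; each point is 1 bin, the dashed line is the median of the rest of chromosome 15 (-2.03 and 1.71), and purple and orange shading mark the 3 H3K27me3 stretches and the residual H3K36me2 stretch. H3K27me3 is near or below 0 in the purple stretches and reaches 4.13 downstream of the orange one, where H3K36me2 lies between -4.67 and -0.41 over the whole region.

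The H3K27me3 ratio varied widely along the region. In the first 5 consecutive windows of 200 kb, covering the first Mb, the H3K27me3 ratio under the deposited scaling was 0.804, 1.26, 2.99, 1.47 and 0.989, and with equal library totals it was 0.320, 0.501, 1.19, 0.584 and 0.393. In the next windows towards Myc it was 8.87, 10.9, 7.21 and 3.79, and in the last 4, from 61.8 Mb on, it was 7.90, 10.4, 14.5 and 11.7. H3K36me2 was between 26.0-fold and 80.8-fold lower in 11 of the 13 windows. It was 3.82-fold lower at 61.8 to 62.0 Mb and 5.15-fold lower at 62.0 to 62.2 Mb, and with equal library totals these 2 windows were 2.47-fold and 1.83-fold higher. All 13 windows thus had less H3K36me2 in K36M under the deposited scaling. The smallest differences lay in the 2 windows that share the residual stretch described below. The last 2 windows, further downstream, were 43.0-fold and 56.5-fold lower.

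Myc itself lay in a dip of WT H3K36me2 within the longest run. The Myc position falls on the border of a pair of bins. In the first, 61810001-61820000, H3K36me2 was 252 in WT and 11.7 in K36M, 21.5-fold lower (17.8 to 26.2), and H3K27me3 was 1.96 in WT and 26.0 in K36M, 13.2-fold higher (7.91 to 23.4). In the second, 61820001-61830000, H3K36me2 was 292 in WT and 71.0 in K36M, which is 4.11-fold lower (3.67 to 4.61) under the deposited scaling and 2.30-fold higher with equal library totals. Its H3K27me3 was 2.40 in WT and 25.4 in K36M, 10.6-fold higher (6.56 to 17.8), from 22 and 86 reads. The second bin ranked 154 of 244 in WT H3K36me2 and 23 of 244 in K36M H3K36me2, so it was among the bins with the most H3K36me2 in K36M. Both bins were low in H3K27me3 for the region in K36M too, at ranks 200 and 201.

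The bins around them had the values of the high run. Upstream, the bin 61790001-61800000 had H3K36me2 of 478 in WT and 8.42 in K36M, and 61800001-61810000 had 522 and 9.44. Downstream, the 4 bins of 61830001-61870000 had a mean H3K36me2 of 502 in WT and 14.4 in K36M, 34.8-fold lower, and a mean H3K27me3 of 6.68 in WT and 74.9 in K36M, 11.2-fold higher. The H3K27me3 level in K36M in these 4 bins was close to that of the downstream run and above that of the Myc bins. Both K36M means of the 4 bins were above those of the longest run, 8.69 for H3K36me2 and 46.3 for H3K27me3. The bin at 61780001-61790000 was the lowest of the region in all 4 libraries, with 31.2 and 0.858 scaled reads of H3K36me2 and 0.654 and 3.54 of H3K27me3 in WT and K36M. It rested on 49, 11, 6 and 12 reads. Input values were not used here. Another 4 bins of the region were low in all libraries against their neighbours.

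Downstream of Myc, H3K36me2 was still present in K36M over a stretch of 230 kb. This stretch, 61870001-62100000, was picked after the values were seen, as the longest unbroken run of the region at or above the genome's 90th percentile of K36M H3K36me2 (45.3 scaled reads). It holds 23 bins, 50 to 280 kb from the position of Myc, and chromosome 15 has 3 longer runs of this kind among 291, of which the longest spans 310 kb and the median 20 kb. The mean of H3K36me2 was 203 in WT and 106 in K36M, which is 1.92-fold lower (1.87 to 1.97) under the deposited scaling and 4.92-fold higher with equal library totals. Single bins lay between 101 and 306 in WT, and between 50.2 and 139.9 in K36M. Only 4 of the 23 bins passed the 2-fold rule for H3K36me2. The log2 ratio of H3K36me2 nearest to 0 was here, at 62070001-62080000, where H3K36me2 was 192 in WT and 139.9 in K36M (log2 ratio -0.41).

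The stretch made up 9.43% of the region's bins. It held 5.21% of the region's H3K36me2 signal in WT and 54.7% of it in K36M, shares taken within a library that do not depend on the scaling factors. Of the other 221 bins, 4 reached its lowest level in K36M and none exceeded its highest. In WT 150 of the 221 lay above its highest bin, 59 lay within its range and 12 lay below it. In WT the stretch was thus below most of the region, and in K36M it held the region's peak. Since K36M H3K36me2 picked the stretch, its peak, share and counts in that library are a description. Without it, the mean of H3K36me2 over the region was 0.0237 times that of WT, against 0.0496 with it. The other 4 bins were the second Myc bin with 71.0 scaled reads, 62110001-62120000 with 66.7, and the pair at 62150001-62170000 with a mean of 66.2.

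H3K27me3 was low in the same stretch in both lines. Its mean was 2.09 in WT and 8.47 in K36M, 4.04-fold higher (3.58 to 4.57) under the deposited scaling. With equal library totals it was 1.61-fold higher. These means rest on 442 reads in WT and 660 in K36M. Only 1 of the 23 bins reached the level needed to be counted for H3K27me3. Single bins ranged from 3.84 to 18.0 in K36M. Of the other 221 bins, 208 lay above that range in K36M and 203 lay above the WT range of 0.872 to 3.49. The H3K27me3 level in K36M was thus lower in this stretch than in nearly all of the region, although it was higher than in WT. It held 1.79% of the region's H3K27me3 signal in K36M. The isolated bins downstream with H3K36me2 in K36M also had less H3K27me3 than their neighbours, though above the range of the stretch. At 62110001-62120000 H3K27me3 in K36M was 18.3, between neighbours with 52.8 and 61.9. In the pair at 62150001-62170000 it was 18.3 and 28.0, between neighbours with 86.1 and 74.9.

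Over the 1093 bins of the rest of chromosome 15 that reached 45.3 scaled reads of H3K36me2 in K36M, levels were set beside those of the 27 such bins of the region, 23 of which form the residual stretch. Means of H3K36me2 were 180 in WT and 83.2 in K36M, against 239 and 100.2 in the region. Means of H3K27me3 were 2.93 in WT and 14.7 in K36M, against 2.11 and 10.5. The H3K36me2 ratios, 0.463 over the rest and 0.419 in the region, became 4.37 and 3.96 with equal library totals. Within the residual stretch alone, the median of H3K36me2 in K36M was 111 scaled reads, where the quartiles of those 1093 bins were 60.6 and 99.1. Its median of H3K27me3 in K36M was 7.96, where their quartiles were 8.26 and 18.3.

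**Figure D3:**
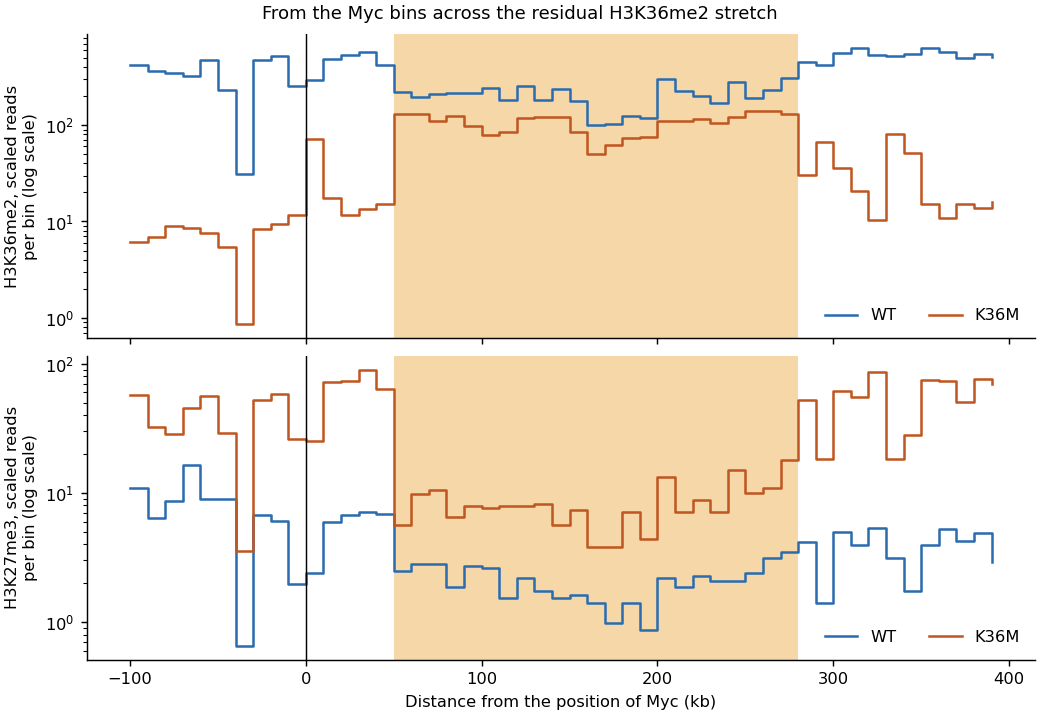
H3K36me2 (upper panel) and H3K27me3 (lower panel) in WT (blue) and K36M (brown) from 100 kb upstream to 400 kb downstream of Myc, in scaled reads per 10 kb bin on a log scale, 1 library per line and no error bars. In the orange stretch of 23 bins the H3K36me2 lines come within 1.92-fold of each other on average and H3K27me3 in K36M drops to 3.84 to 18.0, while both flanks have H3K36me2 far apart.

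Each border of the residual stretch lay where K36M H3K36me2 crossed the level that picked it, so a step in that library was required. The sizes of these steps and the medians of K36M H3K36me2 are a description. H3K27me3 and WT H3K36me2 did not enter the rule for this stretch. At its upstream border, at 61.87 Mb, H3K36me2 in K36M was 15.2 in the last bin before it and 131.9 in the first bin inside, an 8.67-fold step. In WT the same step went the other way, from 417 to 221. H3K27me3 in K36M was 63.4 before the border and 5.61 inside, an 11.3-fold step down, and in WT it was 6.87 and 2.51. Medians of the 10 bins on either side were 11.6 and 119.8 for H3K36me2 and 55.3 and 7.96 for H3K27me3, both in K36M. The downstream border at 62.10 Mb was more gradual: H3K36me2 in K36M was 130.6 in the last bin inside and 30.3 in the next, a 4.30-fold step, and H3K27me3 was 18.0 and 52.8. These steps are within libraries and do not depend on the scaling factors. The upstream border of the residual stretch was also the downstream end of the 730 kb run, and its downstream border the start of the 490 kb run.

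**Figure D4:**
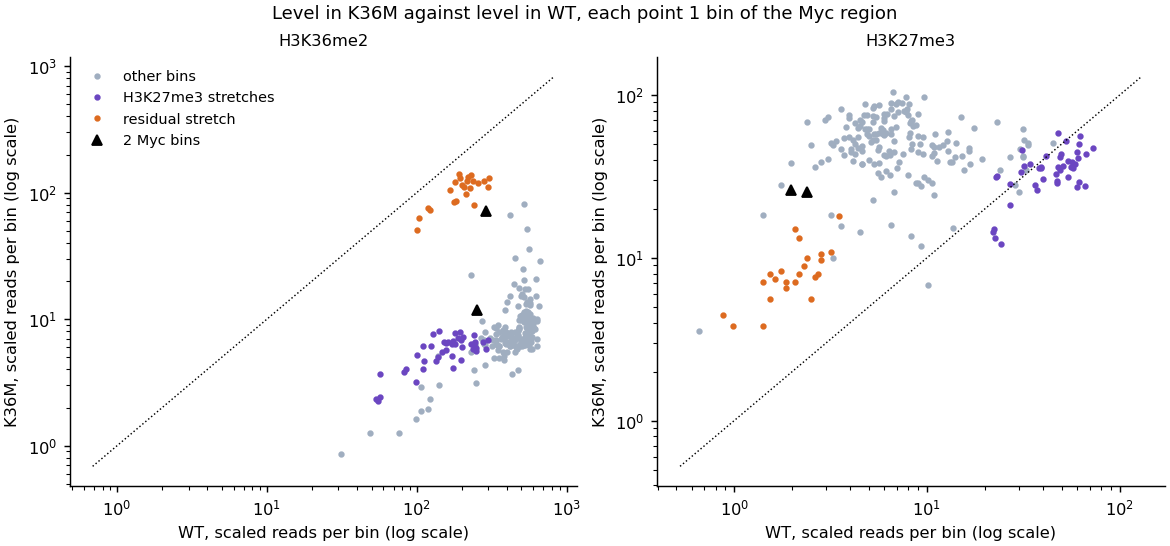
Level in K36M against level in WT for H3K36me2 (left) and H3K27me3 (right), in scaled reads per bin on log scales; each point is 1 of the 244 bins, and the dotted line marks equal levels. The residual stretch (orange) lies nearest to the line in H3K36me2, the H3K27me3 stretches (purple) lie around it in H3K27me3, and the 2 Myc bins (triangles) have 252 and 292 in WT and 11.7 and 71.0 in K36M for H3K36me2.

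Across the 244 bins, the level of H3K27me3 in K36M went with the WT level of H3K36me2 (Spearman's rho 0.74 and Pearson's r of log levels 0.70), and both were lower over the 9586 bins of the rest of the chromosome (0.31 and 0.28). Without the residual stretch the values over the remaining 221 bins were 0.70 and 0.76. The level of H3K27me3 in K36M had next to no relation to H3K27me3 in WT over all bins of the region (rho 0.04, r 0.21) and a weakly negative one without the residual stretch (rho -0.28, r -0.17), whereas over the rest of the chromosome the relation was strong (rho 0.70, r 0.67). In WT the marks were opposed in the region (rho -0.34, r -0.36), more so without the residual stretch (rho -0.61, r -0.57), and unrelated over the rest of the chromosome (rho 0.02, r -0.03). In K36M the rank and log measures differed in sign over all bins (rho 0.18, r -0.41), and without the residual stretch both were positive (rho 0.58, r 0.47). The residual stretch was picked on K36M H3K36me2, a measure in these K36M coefficients, so their change on leaving it out is a description. These coefficients describe neighbouring bins that share domains, mappability and libraries, and they are given without a test.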

How the data were processed

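Of the 6 samples, the 4 immunoprecipitated libraries were analysed; the 2 inputs have no column in the table used and were not analysed here. The authors deposited a signal value per genomic interval, and each library's values divided by a single step of its own gave whole numbers (tolerance 0.01). The deposited signal is therefore read numbers times a factor (scaled reads), and reads were recovered by this division. The sources used here do not give the origin of the factor, the counting or any duplicate removal. Per the submitters' processing notes, Bowtie 1.0.0 was used, with genome builds dm6 and mm9. Per the labels' protocols the spike-in chromatin was 5% of the mouse chromatin; another label gives an equal mixture of cells, and the labels do not settle which applies. Intervals of other widths and bins at 0 in all libraries were left out.

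Levels were compared as ratios of mean scaled reads with exact binomial (Clopper-Pearson) intervals, and bins as log2 ratios with the 5th percentile of WT as pseudocount. The bins named are the 200 kb windows, the Myc bins with 5 on either side, the longest high run with its ends, the 3 highest and lowest bins per library and per log2 ratio, runs of at least 5 bins that did not pass, and the threshold's neighbours. The members, stretches and lists were chosen with earlier results of these data known; the residual and H3K27me3 stretches were added after seeing values. The procedure was tested on simulated data. Alternatives were other pseudocounts, filters, folds, percentiles, scalings, comparison bins and averages. Tools were scipy 1.17.1, pandas 2.3.3 and numpy 2.4.6 under Python 3.11.15, and matplotlib 3.10.9 for plots.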

Additional observations from a re-analysis of the deposited data

How the results depend on the processing

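Across 66 alternatives for 13 results, 39 values stayed within the limit set for them, 26 moved and 1 turned its direction. The regional H3K36me2 ratio of 0.0496 was 0.0188 by medians, 0.468 with equal library totals, 0.0445 after background subtraction, 0.0471 with the 20 kb intervals added, 0.0539 without the first and last 200 kb and 0.0237 without the residual stretch. The regional H3K27me3 ratio of 3.02 was 6.34, 1.20 and 2.90 under the first 3 of these, and 3.33 without the first and last 200 kb. The difference of median log2 H3K36me2 from the comparison bins was -0.85 when the flanks replaced the chromosome. With log2 ratios centred at the genome median, 97 bins were higher in H3K27me3. The longest high run held 35 bins when no gap was bridged, and was then the downstream one. For the longest run against the other bins, the K36M H3K36me2 ratio was 0.958 by medians, 0.494 at the 75th and 0.359 at the 95th percentile. The WT H3K27me3 ratio was 0.770 by medians and 0.363 at the 95th percentile, and the K36M H3K27me3 ratio was 1.08 and 1.10. In the residual stretch, chosen after seeing the data like its alternatives, the H3K36me2 ratio was 0.534 by medians, 0.560 after subtraction and 4.92 with equal totals, which is its reversal; its H3K27me3 ratio was 1.61 with equal totals. In the longest H3K27me3 stretch the ratio was 0.593 by medians, 0.275 with equal totals and 0.577 after subtraction. The cause of these moves was not tested. No paired analysis was possible because each group has 1 library. With 1 library per group, the scaling factor and any difference between cultures cannot be told apart from the effect of K36M, and intervals cover counting error only.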
